A study of Mus musculus with 20 samples.

Results

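The genes examined here are those of the cytosolic ribosomal proteins, the proteins that form the large and the small subunit of the ribosome around its rRNAs. Members were the protein-coding genes of the RNA-seq table named Rpl or Rps followed by a number, with Rpsa, Rplp0, Rplp1 and Rplp2, and without the kinases named Rps6k and copies with -ps in their name. This rule found 86 of 29692 genes. Of these, 77 encode core ribosomal proteins (46 of the large subunit and 31 of the small subunit) and 8 are paralogs, extra copies of a core gene: Rpl3l, Rpl7l1, Rpl10l, Rpl22l1, Rpl36al, Rpl39l, Rps27l and Rps27rt. The last, Rps19bp1, encodes a protein that binds a ribosomal protein and is none itself. Fau, which encodes a ribosomal protein fused to a ubiquitin-like part, and Rack1, a protein of the small subunit, are not caught by the names and were followed separately.

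The cells were mouse embryonic stem cells, cultured pluripotent cells of the early embryo, grown with 10% fetal bovine serum and leukemia inhibitory factor. A flow sort gave state 1 (Nanog and Sox2, both pluripotency factors, high), state 2 (Nanog low, Sox2 high) and state 3 (both low). The fourth group was the unsorted total population. There were 12 rRNA-depleted RNA-seq libraries (3 in each group) and 8 small RNA libraries (2 in each group). All groups share the culture medium, and a strain, a cell line, the sex of the cells and the way in which Nanog and Sox2 were read in the sort are not given in the labels used here. The tables used here hold 1 value per gene and group, made by the authors from the libraries of that group, so the values carry no spread and no test on libraries was possible. Whether the libraries of a group came from separate cultures is not stated in the labels.

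Each ribosome needs about equal amounts of its core proteins, and their genes, scattered over the genome, are known for RNA levels that move together. Their transcripts start with a run of C and T, the 5′ terminal oligopyrimidine tract, through which the mTOR kinase and the RNA-binding protein Larp1 set how well they are translated. In stem cells, ribosome production and growth rate are closely linked, and Myc proteins are known activators of the whole programme.

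About 48.0 to 60.4 M RNA-seq reads stood behind each group, read from the commonest low value of each column, and 5.61 to 10.9 M small RNA reads. The 2 genes used in the sort followed their labels: Nanog had values of 4145, 743 and 440 in states 1, 2 and 3, and Sox2 had 4155, 3167 and 1306. All 10 embryonic stem cell markers were present in every group, with summed values of 70622, 55799 and 46390 in states 1, 2 and 3. Summed values of markers of other cell types were highest in state 3. For 15 fibroblast markers (of 17 listed) the sum was 348, 2237 and 9348 in states 1, 2 and 3. All 15 were higher in state 3 than in state 1, and 9 of these differences were called by the rule given below. The largest state 3 values among them were 3678 for Thbs1 and 3445 for Tagln. For 10 trophectoderm markers the sum was 1355, 2991 and 10888, with 8 higher (8 called) and 2 lower (1 called). For 13 primitive endoderm markers (of 14 listed) it was 6706, 5926 and 10375, with 12 higher (7 called) and 1 lower (called). Col4a1 alone had 5754 of this sum in state 3. Over all genes 11.4% were called higher and 9.01% lower. Lum, Elf5 and Ttr were near 0 in every group (at most 1.46, 0.64 and 0.36). Every difference between state 3 and another state given here therefore goes along with more RNA of such genes in state 3, whose part in the differences was not tested. In sorted populations, fewer cells of a type and less RNA per cell cannot be told apart.

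Ribosomal protein RNA was lower in state 3 than in state 1 for all 86 members on the deposited scale, and for 77 to 86 of them under other scalings. In the core genes the difference was small and even. The summed value of the members was 1.02 M in state 1, 0.954 M in state 2, 0.895 M in state 3 and 0.952 M in the total population. On the deposited scale state 1 was thus highest and state 3 lowest, and the total population lay beside state 2. This place of the total population depended on the scaling, as given below. As a share of everything in the column, the members took 5.75%, 5.64%, 5.17% and 5.54%. The noncoding gene Gm26917 alone took 12.6%, 11.2%, 11.7% and 10.4% of the columns. Without it the members took 6.57%, 6.35%, 5.86% and 6.18%. Ratios are given as log2((value + 1)/(value + 1)). The median member had a log2 ratio of -0.20 in state 3 against state 1, a value 12.8% lower, and the middle 50% of members lay between -0.25 and -0.16. Under other scalings this median ran from -0.09 to -0.20, with -0.09 where columns were rescaled to abundant coding genes and -0.11 with quantile rescaling. Over all genes the median was 0 and 43.2% of genes had a lower value in state 3.

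Both steps, from state 1 to state 2 and from state 2 to state 3, were of like size on the deposited scale. In state 2 against state 1 the median of the members was -0.10 and 80 of 86 were lower. Only 60 of 86 were lower with columns rescaled to their totals, and 59 with quantile rescaling. The step from state 2 to state 3 had -0.10 and 81 of 86 were lower. With columns rescaled to their totals the 2 steps were unequal, at -0.04 and -0.13. These comparisons share their groups, so their values are set side by side and are no separate evidence. In state 1 against the total population the median was 0.10, with 85 of 86 members higher in state 1. The exception, Rpl36al, had 2655 in state 1 and 2661 in the total population. With quantile rescaling this median was 0.08, beside -0.03 in state 2 and -0.11 in state 3 against state 1. With columns rescaled to other coding genes with a mean of at least 5000 it was 0.12, beside -0.04 and -0.09. By these medians the total population was then not beside state 2, and under the last scaling it was not above state 3.

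The order state 1, state 2, state 3 from high to low held in 69 of the 77 core genes (89.6%) on the deposited scale. Among 432 other protein-coding genes with a mean of at least 5000 it held in 206 (47.7%). With columns rescaled to their totals the counts were 52 (67.5%) and 177 (41.0%), and with quantile rescaling they were 48 (62.3%) and 156 (36.1%). Over the totals without Gm26917, a scaling chosen after seeing the data, they were 64 (83.1%) and 196 (45.4%). On the deposited scale 73 core genes had their highest value in state 1 and 68 their lowest in state 3, and in 69 the total population lay between these states. With quantile rescaling these counts were 49, 54 and 44. Rescaled to coding genes with a mean of at least 1000, they were 55, 41 and 40. Rescaled to those of at least 5000 that are no members, they were 59, 34 and 35. Both of these scalings were chosen after seeing the data. On the way from state 1 to state 3 the median core gene stood at 0.48 in state 2, where 0 is the state 1 value and 1 the state 3 value, and the middle 50% of genes stood between 0.35 and 0.63. With columns rescaled to their totals the median stood at 0.21. On the deposited scale the median log2 ratio of the total population over state 2 was 0.0025 in the core genes, against 0.11 over state 3 and -0.10 over state 1.

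**Figure D1:**
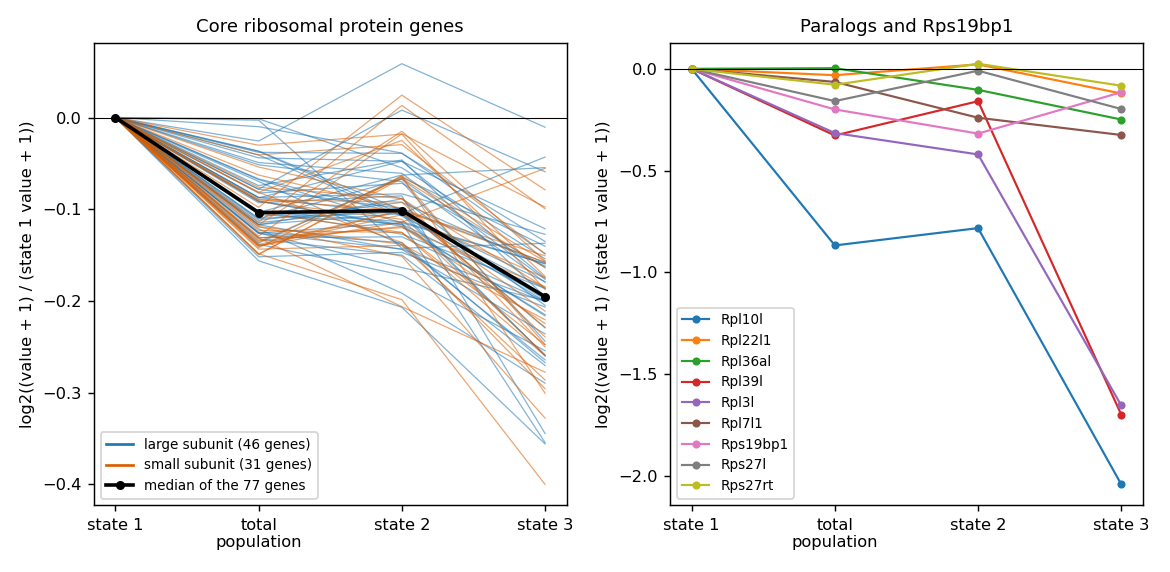
Log2 ratio of each member to its own state 1 value (y axis) in state 1, the total population, state 2 and state 3 (x axis), with core genes on the left (1 line per gene, black: median of 77) and the 8 paralogs and Rps19bp1 on the right. The core genes form 1 narrow band that ends at a median of -0.20 in state 3, while Rpl39l, Rpl3l and Rpl10l reach -1.70, -1.66 and -2.04; y scales differ between the panels.

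The large and the small subunit had like values. The median log2 ratio of state 3 to state 1 was -0.19 over the 46 large subunit genes and -0.21 over the 31 small subunit genes, and all 77 were lower. In state 2 against state 1 the medians were -0.10 and -0.10, and in state 3 against state 2 they were -0.09 and -0.12. The SD between core genes was 0.07 in state 3 against state 1, and 63 of 77 genes lay between -0.3 and -0.1. The core genes sit on 19 chromosomes, with at most 14 on 1 of them (chromosome 7). The 4 on chromosome X (Rpl10, Rpl36a, Rpl39 and Rps4x) had a median of -0.22, and the other 73 had -0.20.

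The core genes differed from one another mainly at the ends of this narrow band. The lowest state 3 value relative to state 1 was that of Rps29, a zinc-binding protein of the small subunit, with values of 7983, 6956, 6050 and 7202 in state 1, state 2, state 3 and the total population (log2 -0.40). Next came Rpl37a, a zinc-binding protein of the large subunit, with 13088, 11338, 10226 and 11744 (log2 -0.36). In both genes state 1 was highest and state 3 lowest. At the other end stood Rpl23a, a protein at the exit of the peptide tunnel, with 13170, 13716, 13074 and 12938 (log2 -0.01). Rpl41, Rplp0 and Rps2 followed with log2 ratios of -0.04, -0.05 and -0.06. Rplp0 is the base of the stalk to which Rplp1 and Rplp2 bind, and these had -0.14 and -0.20. Core genes outside the order of the states included Rpl23a, Rps12 and Rps19, in which state 2 was above state 1 by at most 0.06 on the log2 scale. They also included Rpl35a, Rpl41, Rps2 and Rplp0, in which state 3 was above state 2 by at most 0.06.

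**Figure D2:**
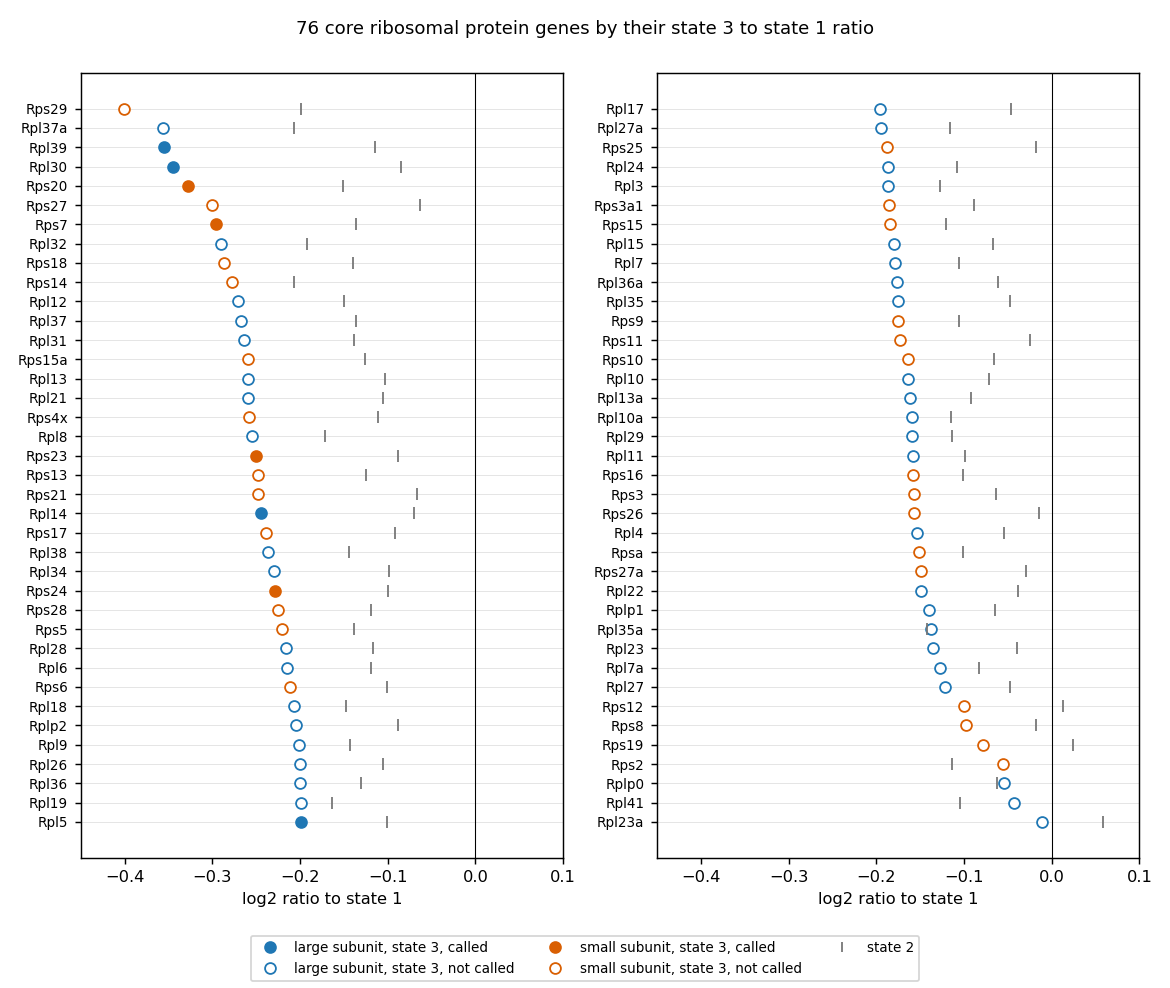
Core genes (76 of 77) ranked by their log2 ratio of state 3 to state 1 (circles; filled where the difference was called), with the ratio of state 2 to state 1 as a grey tick and subunits in 2 colours. Ratios run from -0.40 for Rps29 to -0.01 for Rpl23a, and the 8 filled circles lie at -0.20 or below, among genes with like ratios that were not called.

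The authors' deposited table gives for each gene the posterior probability of 15 patterns of equal and unequal groups. A difference between 2 groups was called where the patterns that set them apart summed to at least 0.95. In state 3 against state 1, 11 of the 86 members were called lower and 0 higher (12.8%). Over all genes 20.4% were called in either direction, 9.01% lower and 11.4% higher. Among all protein-coding genes 13.8% were called lower, and among the 432 others with a mean of at least 5000 it was 23.6%. The members' share of lower calls was thus above that of all genes and below that of coding genes and of other abundant coding genes. In state 3 against state 2, 7 members were called lower and 0 higher (8.14%), beside 8.59% of all genes in either direction and 3.19% lower. Among coding genes 4.90% were called lower there, and among the 432 other abundant coding genes 9.49%. In state 2 against state 1, 1 member was called lower (1.16%), beside 13.4% and 6.33%. In state 1 against the total population 0 members were called, beside 1.98% of all genes. The summed probability of the members was 21.1 of 86 in state 3 against state 1, a mean of 24.5%, from the authors' deposited table. This was below the mean of 29.2% over all genes, 42.3% over coding genes and 48.7% over the 432 other abundant coding genes.

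Of the 11 members called in state 3 against state 1, 8 were core genes. Rps24, a small subunit protein, was the only member called in all 3 comparisons of states. Its call in state 2 against state 1 was lost at a threshold of 0.99 and with state 1 and the total population exchanged in the pattern order. Its values were 23428, 21871, 19992 and 22430 in state 1, state 2, state 3 and the total population, with the total population between states 1 and 2. It fell by 6.65% from state 1 to state 2 and by 14.7% from state 1 to state 3. The authors' deposited table gave it probabilities of 0.956 and 1.00. Rpl39, a small protein that lines the peptide tunnel, had 4226, 3902, 3305 and 4032, and fell by 0.35 on the log2 scale from state 1 to state 3. Rpl30, a large subunit protein, had 5758, 5427, 4534 and 5399, and fell by 0.34. In both genes the larger step was that from state 2 to state 3, with log2 ratios of -0.24 and -0.26, and this step was called.

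Rps7 and Rpl5 are ribosomal proteins that also bind Mdm2, the inhibitor of p53. Rps7 had 10863, 9884, 8849 and 10264, and fell by 0.30 on the log2 scale from state 1 to state 3. Rpl5 had 15488, 14442, 13497 and 15100, and fell by 0.20. In both, state 2 lay near the middle between the other states, and neither step alone was called. Rpl14, a large subunit protein, had 12541, 11947, 10590 and 12100, and fell by 0.24. Rps23, a small subunit protein at the decoding centre, had 12706, 11952, 10684 and 12053, and fell by 0.25. In both of these the step from state 2 to state 3 was called. Rps20, a small subunit protein, had 12129, 10921, 9663 and 11167, and fell by 0.33, with a probability of 0.967 in the authors' deposited table.

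Members just under the threshold were Rps4x, the X-linked copy of a small subunit gene, Rpl31, Rps25 and the paralog Rpl3l, with probabilities of 0.942, 0.911, 0.881 and 0.857 in the authors' deposited table. Rps4x had 16687, 15451, 13948 and 15660 (log2 -0.26). Rpl31 had 14190, 12888, 11814 and 13520 (log2 -0.26). The 3 core genes followed the order of the states like those that were called.

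The call did not follow the size of the difference. Rps29 and Rpl37a had the lowest ratios of the core genes and were not called, with probabilities of 0.552 and 0.165 in the authors' deposited table. Rps27 had a log2 ratio of -0.30 and a probability of 0.0196 in the authors' deposited table, while Rpl5 was called at -0.20. The spread between libraries, which enters the authors' probabilities, is not in the tables used here. A count of called members is therefore no count of the members that differ.

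**Figure D3:**
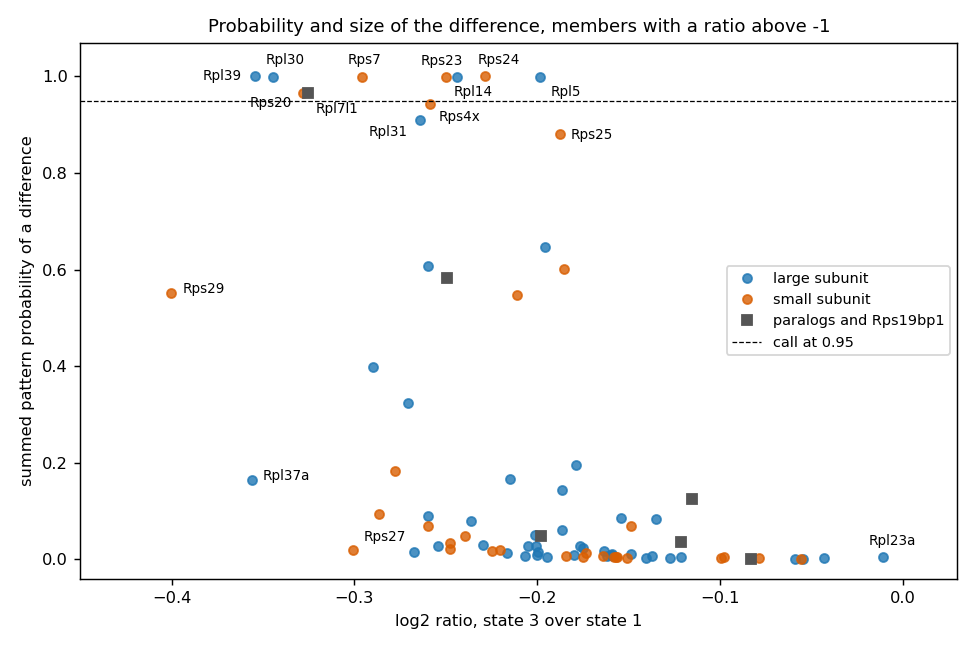
Summed probability that state 3 and state 1 differ, from the authors' deposited table (y axis; dashed line: call at 0.95), against the log2 ratio of state 3 to state 1 (x axis), 1 point per member with a ratio above -1. Called members lie between -0.35 and -0.20, and members with like ratios lie at any probability, down to 0.0196 for Rps27 at -0.30.

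Start regions were compared next. Of the 86 members, 66 had a window of 250 bases before to 50 bases after a RefSeq transcript start (GRCm38.p6). A run of at least 10 C or T was searched on the gene's strand from 60 bases before to 50 after the start. It was found in 47 of 66 (71.2%) and in 22.4% of 27025 genes in all, and need not lie at the start. Of the 9 called members with a window, 5 had such a run (55.6%). The letters CCGGAA, the core bound by ETS factors such as Gabpa, stood on either strand in 36 of 66 (54.5%) and in 16.7% of all genes. CACGTG, the E-box read by Myc proteins, stood in 9.09% of members and 8.09% of all genes, and TATAAA in 10.6% and 15.7%. Below are 30 bases around the longest C or T run of the 9 called members with a window, read 5′ to 3′ on the gene's strand, with that run in capitals. They are shown because these members are the ones called lower in state 3.
Rps24 (chr14:24490710-24490739, plus strand): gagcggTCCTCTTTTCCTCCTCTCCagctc
Rps23 (chr13:90923142-90923171, plus strand): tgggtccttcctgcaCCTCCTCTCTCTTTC
Rpl14 (chr9:120571501-120571530, plus strand): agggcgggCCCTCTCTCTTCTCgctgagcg
Rpl39 (chrX:37085173-37085202, minus strand): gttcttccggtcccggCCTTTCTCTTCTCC
Rps7 (chr12:28635911-28635940, minus strand): ctgtccccaCCTCTTTTCTTCCgccacccg
Rpl5 (chr5:107900497-107900526, plus strand): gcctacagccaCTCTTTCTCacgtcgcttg
Rpl39l (chr16:10170191-10170220, plus strand): aacacccactgCCTCTCCCTagctcccagg
Rpl7l1 (chr17:46782671-46782700, minus strand): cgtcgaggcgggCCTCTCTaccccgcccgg
Rpl10l (chr12:66284445-66284474, minus strand): tatcttcaagtctTCCTCagtctctatgat
The run is 19 bases long in Rps24, 13 to 15 in Rps23, Rpl14, Rpl39 and Rps7, and 9 in Rpl5 and Rpl39l. It is 7 in the paralog Rpl7l1. In the paralog Rpl10l the capitals begin at the first base searched, and the run goes on before it. In Rpl39 and Rps23 it reaches the last base of the window and may go on beyond it. Counted from the RefSeq start, the runs begin at -37 in Rps24, -8 in Rpl14, -20 in Rpl5, -26 in Rpl39l and -32 in Rpl7l1. They begin at 23 in Rps7, 36 in Rps23 and 37 in Rpl39. Of the runs printed, only that of Rpl14 spans the start. These matches are letters, not shown sites.

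Core genes with and without these letters had like ratios. The median ratio of state 3 to state 1 was -0.20 in the 32 core genes with CCGGAA and -0.19 in the 25 without. It was -0.20 in the 44 with a C or T run and -0.19 in the 13 without. The 38 core genes with the lowest mean values had a median of -0.20 and the other 39 had -0.19. Across the 77 core genes, which share libraries, the log2 mean value and the log2 ratio had a Pearson r of 0.29 and a Spearman rho of 0.26, given as a description.

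The largest differences among the members were in paralogs of low value. Rpl39l, a copy of Rpl39 known from male germ cells and also found in embryonic stem cells, had 90.6 in state 1, 81.1 in state 2, 27.2 in state 3 and 72.0 in the total population. It fell by 1.70 on the log2 scale from state 1 to state 3 and by 1.54 from state 2 to state 3, and both differences were called. States 1 and 2 were close together and state 3 alone was low. The state 3 value amounts to about 76 reads (95% Poisson interval 59.9 to 95.1, counting error only) and that of state 1 to about 283 (251 to 318). Of the values of Rpl39 and Rpl39l together, which are not per length, Rpl39l made up 2.10%, 2.03% and 0.816% in states 1, 2 and 3.

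Rpl10l, a retrogene copy of the X-linked Rpl10 known from the testis, had 36.3, 20.7, 8.04 and 19.4. It fell by 2.04 on the log2 scale from state 1 to state 3 and by 1.26 from state 2 to state 3, again called, while Rpl10 had a log2 ratio of -0.16. Here the values went down at each step, and the state 3 value rests on about 22 reads (13.8 to 33.3). Rpl3l, a copy of Rpl3 known from striated muscle, had 10.3, 7.47, 2.60 and 8.11, a log2 ratio of -1.66 that was not called and rests on about 7 reads in state 3. Rpl7l1, an Rpl7-like protein, had 2949, 2496, 2353 and 2820. It fell by 0.33 on the log2 scale from state 1 to state 3, with a probability of 0.966 in the authors' deposited table, and most of the difference lay in the first step (log2 -0.24). That step had a probability of 0.946 in the authors' deposited table and was not called.

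The other 4 paralogs had log2 ratios within 0.22 of those of their parent genes. Rpl22l1 had a log2 ratio of -0.12 in state 3 against state 1, and Rpl22 -0.15. Rpl36al had -0.25 and Rpl36a -0.18. Rps27l, known as a target of p53, had -0.20, Rps27rt, a retrogene, had -0.08, and their parent Rps27 had -0.30. None of these 7 genes was called. Rps19bp1, the member that is no ribosomal protein, had 349, 280, 322 and 304 and was not called in any comparison.

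Processed copies of these genes are many and may share reads with them, which was not tested. The table lists 194 pseudogenes named after 53 members, found by -ps in their names. Copies under other names, if any, are left out. Their summed value was 1.88%, 1.89%, 1.86% and 1.85% of that of the members in state 1, state 2, state 3 and the total population, an almost constant share. Of 29 with a mean of at least 50, 26 were lower in state 3 than in state 1, with a median log2 ratio of -0.22, close to that of the members. Rps2-ps10 had 5604, 5219 and 5036 in states 1, 2 and 3, or 17.6% of Rps2 in state 1, and Rpl3-ps1 had 4648, 4452 and 4021, or 20.3% of Rpl3. Rps13-ps1 and Rpl34-ps1 stood at 23.5% and 34.3% of their parents in state 1. The sources used here do not give how reads were divided between a gene and its copies, so single values of these members are uncertain. With each member summed with its copies of -ps name, the median log2 ratio of state 3 to state 1 was -0.20.

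Rack1 and Fau, outside the naming rule, were lower too, and neither was called. Rack1 had 20841, 18966 and 18536 in states 1, 2 and 3 (log2 -0.17), and Fau had 7341, 7032 and 6734 (log2 -0.12).

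Other genes that make or use ribosomes had lower medians in state 3 as well, with wider spreads. Over all genes 9.01% were called lower in state 3 against state 1. It was 13.8% of coding genes and 26.7% of coding genes with a mean of at least 1000. Of 78 mitochondrial ribosomal protein genes, 27 were called lower (34.6%) and 0 higher. Their median log2 ratio was -0.24, with the middle 50% between -0.35 and -0.10. Mrpl15 had 3487, 2586 and 2044 in states 1, 2 and 3 and fell by 0.77. From state 1 to state 2, 16 of the 78 were called lower (20.5%), beside 1.16% of cytosolic members and 6.33% of all genes. From state 2 to state 3 it was 5 (6.41%), beside 8.14% and 3.19%. Of 90 ribosome biogenesis genes, 11 were called lower (12.2%, below the 13.8% of coding genes) and 0 higher, with a median of -0.17. Among them Senp3, a SUMO protease of the nucleolus, had 6208, 3841 and 3312 and fell by 0.91, and Mdn1, an ATPase that remodels large subunit precursors, had 16958, 14596 and 12816 and fell by 0.40. Of 15 genes of RNA polymerase I and its factors, which transcribe rRNA, 4 were called lower (26.7%) and 0 higher, with a median of -0.30. Ubtf had 5118, 3837 and 3305 and fell by 0.63, and the polymerase loading factor Rrn3 had 4785, 3862 and 3151 and fell by 0.60.

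Translation factors were mixed. Of 67 genes, 11 were called lower (16.4%, beside 9.01% of all genes and 13.8% of coding genes) and 2 higher in state 3 against state 1. Their median was -0.10. Eif2d, a factor that recycles ribosomes, had 2494, 1675 and 1403 in states 1, 2 and 3 and fell by 0.83, and Eif4e3, a cap-binding protein, had 7.07, 22.3 and 34.3 and rose by 2.13. Of 30 genes outside the family with known or presumed oligopyrimidine starts, 4 were called lower and 2 higher, with a median of -0.11. The 4 make 13.3%, beside 9.01% of all genes and 13.8% of coding genes. Eef1b2, part of the elongation factor that reloads eEF1A, had 17230, 15561 and 13655 and fell by 0.34, while Vim, an intermediate filament protein of mesenchymal cells, had 995, 1065 and 4829 and rose by 2.28. Of 9 chaperones and partners of ribosomal proteins, Rps19bp1 among them, 1 was called lower, Bccip (1236, 1192 and 1017, log2 -0.28).

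Of 29 regulators of growth and translation, 8 were called lower (27.6%) and 4 higher in state 3 against state 1. Beside this stand 9.01% of all genes and 13.8% of coding genes called lower. Mycn had 2764, 3818 and 2133 in states 1, 2 and 3: it rose by 0.47 from state 1 to state 2 and was lower in state 3 than in state 1 by a log2 ratio of -0.37, both called. Myc had 1441, 1619 and 2177, a log2 ratio of 0.60 that was not called (probability 0.0547 in the authors' deposited table). Mycl had 141, 285 and 295 and rose by 1.06. Mtor had 2176, 1961 and 1876 and fell by 0.21. Larp1 had 9257, 9818 and 9456 (log2 0.03) and was not called. The 3 Myc genes thus did not share a direction in these values.

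**Figure D4:**
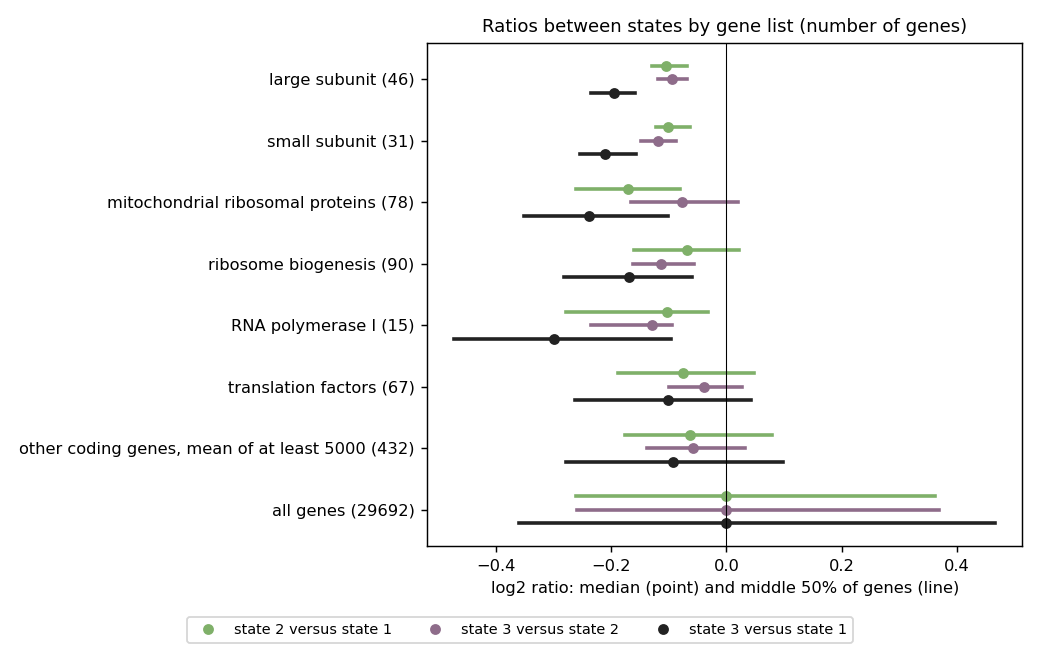
Median log2 ratio (point) and middle 50% of genes (line) for the 2 subunits, other lists of the translation machinery, other abundant protein-coding genes and all genes, in 3 comparisons of states. The subunit lists have the shortest lines, around -0.19 and -0.21 in state 3 against state 1; other abundant coding genes had -0.09 and all genes 0.

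How far below the rest of the cell the members were depends on the reference. Of the 432 other protein-coding genes with a mean of at least 5000, 64.6% were lower in state 3 than in state 1 and their median log2 ratio was -0.09, with the middle 50% between -0.28 and 0.10. Of 3244 protein-coding genes with a mean of at least 1000, 61.9% were lower, with a median of -0.10. When columns were rescaled to these abundant genes, which shifted the median gene by 0.10 on the log2 scale, the median of the members was -0.09 and 77 of 86 were lower. When columns were rescaled to their totals it was -0.16 and 85 of 86 were lower. The median in state 3 against state 1 was below 0 under each scaling tried, and its size differed between them.

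The small RNA libraries gave another readout of the same loci through the snoRNAs, small RNAs that guide rRNA modification and that are cut from introns. RefSeq places 59 snoRNAs inside the span of 30 members, without regard to strand here, and 44 of them, in 26 members, are in the small RNA table. Their median log2 ratio was -0.48 in state 2 against state 1, -0.09 in state 3 against state 2, -0.52 in state 3 against state 1 and 0.40 in state 1 against the total population. With a mean of at least 10, the median in state 3 against state 1 was -0.54 for 43 snoRNAs inside members and -0.55 for 197 others. The snoRNAs of these loci were thus placed like other snoRNAs in this table. The columns of the small RNA table sum to 5.13, 3.43 and 2.61 M in states 1, 2 and 3, and microRNAs with a mean of at least 10 made up 65.2%, 58.6% and 38.9% of them. With columns rescaled to their totals the median in state 3 against state 1 turned to 0.43, so a direction cannot be stated. Any log2 ratio of state 3 to state 1 between -0.97 and 0 turns in this way.

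Of the 44 snoRNAs inside members, 1 was called lower and 1 higher in state 3 against state 1, beside 1.63% of 26278 features. Snord32a, in Rpl13a, had 4509, 3546 and 2421 in states 1, 2 and 3 and 2787 in the total population. It fell by 0.90 on the deposited log2 scale from state 1 to state 3, a direction that turns with the column total. Snord68, in Rpl13, had 17.2, 6.88, 161 and 0 and rose by 3.15, against a total population listed at 0. The most abundant were Snord83b, in Rpl3, with 23321, 15875, 13858 and 21909, and Gm26202, in Rpl17, with 22601, 16692, 10536 and 16349. On the deposited scale both were highest in state 1 and lowest in state 3, an order that held for neither over the column totals, and neither was called. In the RNA-seq table, the 26 core genes that hold a snoRNA of the small RNA table had a median log2 ratio of -0.17 in state 3 against state 1, and the other 51 had -0.21.

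**Figure D5:**
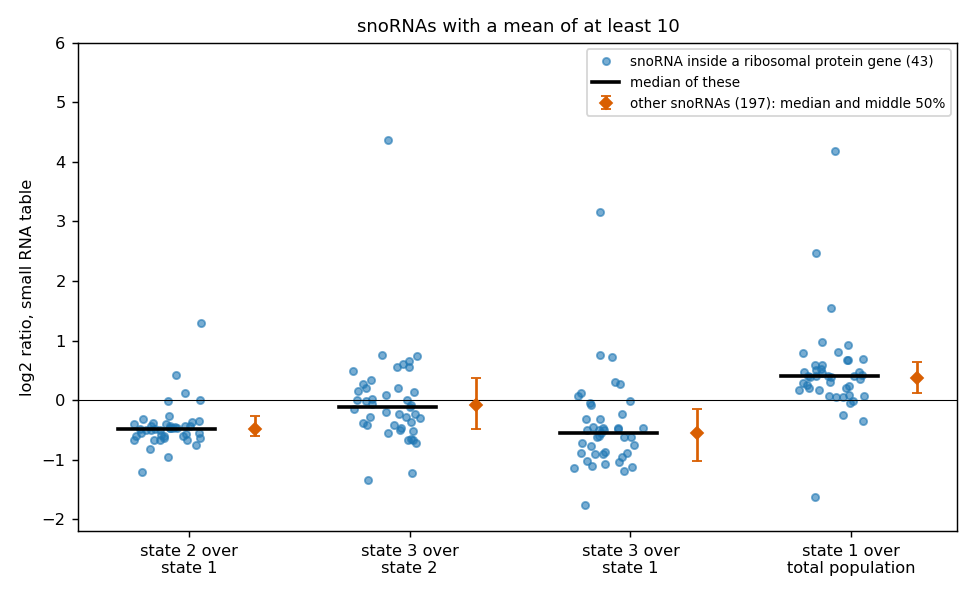
Log2 ratios in the small RNA table for the 43 snoRNAs inside ribosomal protein genes with a mean of at least 10 (points; black bar: median) and for 197 other snoRNAs (diamond: median; line: middle 50%), in 4 comparisons. The medians of both sets lie close together in each comparison, at -0.54 and -0.55 in state 3 against state 1, and Snord68 stands alone at 3.15.

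All 86 member genes also have a row of their own in the small RNA table, though whether it also counts reads of the RNAs inside them is not stated in the sources used here. Of the 86, 9 were called lower in state 3 against state 1 and 0 higher (beside 1.63% of all features, 1.08% lower), and 57 were lower, with a median log2 ratio of -0.18. Rpl5 had 2721, 1526 and 643 in states 1, 2 and 3 and 2932 in the total population. It fell by 2.08 from state 1 to state 3. Its RNA-seq value fell by 0.20. The others called were Rpl6, Rpl13a, Rpl26, Rps13, Rps20, Rps24, Rps26 and Rps27, with log2 ratios from -1.03 for Rpl6 to -0.45 for Rps24. Of the 9, only Rpl5, Rpl6 (-1.03) and Rps20 (-1.01) stayed lower with columns rescaled to their totals. Rps24 had 181, 228 and 132, so that here state 2 was highest. Rpl13 had the highest value, with 22049, 15860 and 11811, and was not called. In Rps27 and Rps27rt, copies of near-identical sequence, the values were 25.7, 7.20 and 13.5, and 0, 17.6 and 4.62. How the reads of this pair were divided was not tested, so the call of Rps27 is uncertain.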

How the data were processed

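The 2 deposited tables, RNA-seq and small RNA, hold a normalized signal for every feature in each group, made by the authors from the libraries of that group, per the file headers and the values. They also give a score, the EBSeq posterior probability that the authors computed for 15 patterns of the groups. The submitters' processing notes name STAR 2.4.1d and RSEM 1.2.30, and mm10 and GRCm38 as builds, with no roles. The sources used here do not say how libraries were scaled and merged.

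Scores of the patterns that set 2 groups apart were summed per gene, and sums of at least 0.95 were called, with the direction from the signal. Since the tables do not spell out the patterns, the EBSeq order over state 3, state 2, state 1 and total population was tried against all other orders. Among 1453 RNA-seq genes with a clear pattern (score of 0.95, mean of 5 or above), groups set equal were on average closer than groups set apart in 100.0%, and in 96.6% with state 1 and the total population exchanged. How often a call from these sums is right was not tested. With 1 value per group, the planned edgeR and limma fits were not run. Log2 ratios used a pseudocount of 1.

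The rule for names took members called between states, the 4 highest and 4 lowest ratios per comparison among members with a value of at least 50 (given here mainly for state 3 against state 1), each paralog with its parent, and up to 4 called genes of every other list. Its further part, members by level per coding length, was not used here, since lengths were not analysed. Genes outside the order of the states, members just under the threshold, Myc, Mtor, Larp1, pseudogenes and snoRNAs were named after their values were seen. Members and lists were chosen with earlier results of these data known. The commonest low value of a column was taken as 1 read, so read numbers are estimates. Coordinates and start windows are from RefSeq (GRCm38.p6), where all 86 members were matched by symbol. Python 3.11.15, pandas 2.3.3, numpy 2.4.6 and scipy 1.17.1 were used. Values of some genes are not reported here.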

Additional observations from a re-analysis of the deposited data

How the results depend on the processing

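Every value rests on 1 number per group and on the authors' probabilities, so leaving out a library and count tests were not possible and were not run. No paired analysis was possible because the tables hold 1 value per group, although the labels share replicate letters. Rpl3l and Rpl10l rest on few reads in state 3. Of 198 values of 22 named members in state 3 against state 1 under other settings, 194 kept their direction and side of the threshold. The 22 were the called members, the paralogs and their parents. Rpl23a, Rpl41, Rplp0 and Rps2, with log2 ratios of -0.01, -0.04, -0.05 and -0.06, were not among them. Over all members, 9 were higher in state 3 than in state 1 where columns were rescaled to abundant coding genes. It was 6 with quantile rescaling and 1 over the column total. At a threshold of 0.99 Rpl7l1 and Rps20 were no longer called in state 3 against state 1, and the log2 ratio of Rps27rt turned to 0.0203 and 0.0195 under scalings to coding genes with a mean of at least 1000 and to those of at least 5000 that are no members. Both scalings, and that to the column total without the noncoding gene Gm26917, were chosen after seeing the data. Calls in state 2 against state 1 were 2 at 0.90, and that of Rps24 was lost, leaving 0, at 0.99 and with state 1 and the total population exchanged in the pattern order. Medians that moved by more than 0.5 of the members' interquartile range were as follows. In state 2 against state 1 the median was -0.0359 over the column total, -0.0271 with quantile rescaling, -0.0389 and -0.0431 under the 2 scalings to abundant genes and -0.0587 without Gm26917. In state 3 against state 2 it was -0.0605 and -0.0571 under the scalings to abundant genes. In state 3 against state 1 it was -0.110 with quantile rescaling and -0.0929 and -0.0937 under the scalings to abundant genes. Against the total population, state 1 had 0.0598 over the column total. The median of the snoRNAs inside members turned to 0.431 over the column total, which was lower in state 3. Counts in the other comparisons stayed within 1.5 times those given, and the pseudocount, the paralogs and the pseudogenes left each median within the limit above.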
